A study of Rattus norvegicus with 9 samples.

Results

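The comparison described here is the effect of PTUPB in rat vascular smooth muscle cells treated with PDGF-BB, measured by RNA-seq in 6 of the 9 libraries of the series. It sets the 3 PDGF-BB+PTUPB libraries against the 3 PDGF-BB libraries over all expressed genes, and the libraries were chosen by their treatment labels alone. All 9 libraries came from wild-type primary smooth muscle cells of the rat aorta, used at passages 4 to 8. Cells were grown in 20% serum, held without serum for 12 h and then treated in 2% serum. Cells of the PDGF-BB group were exposed to PDGF-BB for 24 h. Its concentration is given as 10 ng/mL with the samples and as 20 ng/mL in the design text. The PDGF-BB+PTUPB group received 0.5 µM PTUPB for 2 h before the same PDGF-BB exposure. The Control group received DMSO and no PDGF-BB, and its values are given beside the others as the level in unstimulated cells. Whether the PDGF-BB libraries also received DMSO is not given in the sources used here, and PTUPB without PDGF-BB was not analysed here. Nothing in the labels ties the 3 libraries of a group to distinct cultures or rats, and the p-values therefore reflect only how these libraries vary, which may be technical.

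PTUPB joins a pyrazole benzenesulfonamide, the group found in celecoxib and related inhibitors of cyclooxygenase-2 (COX-2, gene Ptgs2), to a urea, the group found in inhibitors of soluble epoxide hydrolase (sEH, gene Ephx2). COX-2 converts arachidonic acid to prostaglandin H2, the precursor of the prostaglandins and thromboxane, and sEH hydrolyses epoxyeicosatrienoic acids, which cytochrome P450 enzymes make from the same fatty acid. PDGF-BB signals through the PDGF receptors and drives smooth muscle cells to divide, migrate and lose contractile proteins, a change known as phenotypic switching that contributes to the narrowing of injured arteries. The series addresses how the compound acts on that switch.

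Deposited counts summed to between 12729187 and 16911050 per library. Of 32623 genes, 11197 were tested, those that reached an FPKM of 1 in 3 or more of the libraries. Levels below are CPM, the counts of a gene relative to its library after TMM scaling for library size and composition. Differences are log2 values, PDGF-BB+PTUPB minus PDGF-BB, each with its standard error. A gene was called at an adjusted p under 0.05 (edgeR quasi-likelihood test, Benjamini-Hochberg adjustment over all tested genes). The PDGF-BB libraries differed from each other by gene length. Each library was set against the others of its group, so the values within a group are tied. Across tested genes, which are not independent replicates, the deviation of PDGF-BB replicate 3 from the other PDGF-BB libraries had a Spearman correlation of -0.381 with exonic length, against 0.199 and 0.35 for replicates 1 and 2 and between -0.128 and 0.141 for the PDGF-BB+PTUPB libraries. Control replicates 1, 2 and 3 had values of 0.348, -0.389 and 0.158. List counts of 3 or more that move by over 1.5 times without PDGF-BB replicate 3 are given with and without it.

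PTUPB changed 2048 of the 11197 tested genes, or 18.3%. Of these, 927 rose (8.28% of tested genes) and 1121 fell (10.0%). Most changes were small: the median log2 difference was 0.53 among genes that rose and -0.55 among genes that fell, and 56.5% and 54.4% of them lay within 1.5-fold. A change of at least 2-fold was found for 113 genes that rose and 189 that fell. In 2044 of the called genes the 3 libraries of one group all lay beyond the 3 of the other, which held for 40.7% of tested genes whether called or not. Without PDGF-BB replicate 3 the counts were 866 higher and 1003 lower, and without PDGF-BB+PTUPB replicate 1, 2 or 3 they fell to 462, 495 and 615 higher and 540, 614 and 716 lower. Scaled to library totals only, genes that fell made up a larger share, with 759 higher and 1414 lower, and limma on log2(FPKM + 1) gave 728 and 1419.

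**Figure D1:**
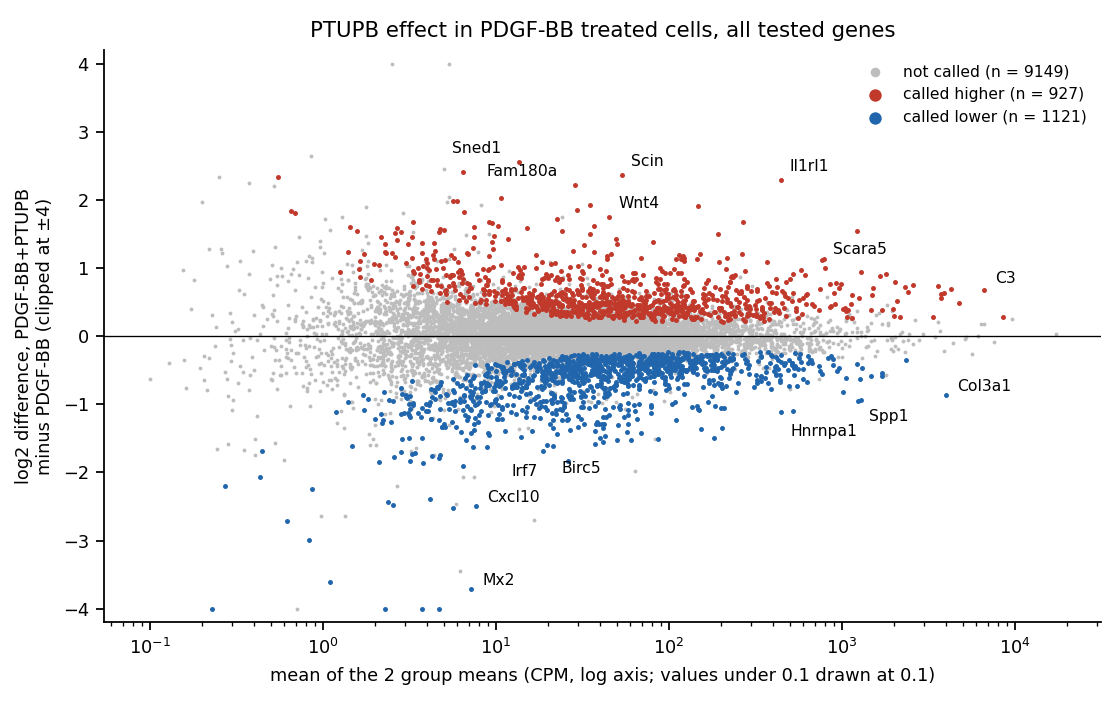
Log2 difference between PDGF-BB+PTUPB and PDGF-BB (vertical axis) against the mean of both group means in CPM (horizontal, log axis) for the 11197 tested genes, 1 point per gene. The 927 genes called higher and the 1121 called lower are spread over the whole range of expression, and genes beyond ±4 are drawn at ±4.

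Of the genes for the enzymes that PTUPB inhibits, Ptgs2 fell and Ephx2 was not called. Ptgs2 was read at 32.6, 37.8 and 21.9 CPM in the PDGF-BB libraries, 17.6, 16.5 and 15.8 CPM with PTUPB and 18.0, 38.5 and 21.9 CPM in Control. The treated libraries lay below all libraries of both other groups, while the PDGF-BB and Control libraries overlapped (log2 difference -0.89 ± 0.27, adjusted p = 0.047). The call was lost without Control replicate 3, PDGF-BB replicate 1 or 2 or PDGF-BB+PTUPB replicate 1, 2 or 3 (adjusted p from 0.0608 to 0.131). Ephx2 was low throughout, at 7.24, 7.82 and 8.01 CPM with PDGF-BB and 7.94, 9.34 and 7.93 CPM with PTUPB, and the groups overlapped (log2 difference 0.13 ± 0.17, adjusted p = 0.637). The constitutive cyclooxygenase gene Ptgs1 overlapped too, at 532, 506 and 579 CPM against 521, 449.9 and 438 CPM (log2 difference -0.20 ± 0.09, adjusted p = 0.178). Ephx1, which encodes microsomal epoxide hydrolase, stood at 24.5, 22.0 and 28.2 CPM against 21.1, 16.9 and 18.5 CPM and was not called with edgeR (log2 difference -0.40 ± 0.13, adjusted p = 0.06). It was called lower by DESeq2, by limma, with scaling to library totals and without PDGF-BB replicate 2 (adjusted p from 0.038 to 0.0488).

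Around these enzymes, calls in lists of arachidonic acid metabolism are to be read against the 18.3% of all tested genes called in either direction. Of 11 tested genes of the cyclooxygenase pathway, 0 rose and 2 fell, Ptgs2 and Ptgr1, a reductase that inactivates prostaglandins and leukotriene B4 (log2 difference -0.72 ± 0.17, adjusted p = 0.0165). Ptgr1 was not called without PDGF-BB+PTUPB replicate 1 (adjusted p = 0.0731), which left 0 calls in the list. Among 5 tested prostanoid receptor genes, Ptger1, the EP1 receptor for prostaglandin E2, rose from 7.55, 8.42 and 8.01 CPM to 12.4, 11.5 and 13.2 CPM (log2 difference 0.63 ± 0.16, adjusted p = 0.0216), though it was not called without PDGF-BB replicate 1 or PDGF-BB+PTUPB replicate 1 or 3 (adjusted p from 0.0711 to 0.0732). Among 5 tested cytochrome P450 and epoxide hydrolase genes, Cyp1b1, a P450 that oxidises estradiol and fatty acids, rose from 1297, 1219 and 1017 CPM to 1891, 1821 and 1667 CPM (log2 difference 0.61 ± 0.12, adjusted p = 0.00677) and Por, the reductase that feeds electrons to microsomal P450 enzymes, fell (log2 difference -0.39 ± 0.09, adjusted p = 0.0182). Por was not called without PDGF-BB+PTUPB replicate 2 or 3 (adjusted p from 0.0525 to 0.0666). Of 13 tested phospholipase, lipoxygenase and polyunsaturated fatty acid genes, 0 rose and 3 fell. They were Lta4h, which makes leukotriene B4 (log2 difference -0.38 ± 0.08, adjusted p = 0.00898), and the desaturases Fads1 (log2 difference -0.63 ± 0.15, adjusted p = 0.0155) and Fads2 (log2 difference -0.53 ± 0.12, adjusted p = 0.0154), which build arachidonic acid from linoleic acid. Fads1 was not called without PDGF-BB+PTUPB replicate 1 or 2 (adjusted p from 0.0516 to 0.0695), nor Fads2 without PDGF-BB+PTUPB replicate 1 or 2 (adjusted p from 0.0537 to 0.0695).

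The 12 genes that rose most included receptors, secreted proteins and enzymes. They were ranked among called genes whose PDGF-BB and PDGF-BB+PTUPB libraries do not overlap. Scin encodes scinderin, which severs actin filaments in the presence of calcium. It was read at 19.7, 15.0 and 17.5 CPM with PDGF-BB, 96.1, 95.2 and 77.9 CPM with PTUPB and 157, 219 and 166 CPM in Control, a 5.16-fold rise (log2 difference 2.37 ± 0.16, adjusted p = 0.000144). Il1rl1, which encodes ST2, the receptor for interleukin-33, went from 189, 127 and 134 CPM to 1137, 560.3 and 518 CPM (log2 difference 2.30 ± 0.32, adjusted p = 0.0018), against 1201, 828 and 1415 CPM in Control. PDGF-BB+PTUPB replicate 1 was the highest treated library for Il1rl1, and the other two still lay above every PDGF-BB library. Sned1, a secreted matrix glycoprotein with nidogen and EGF-like domains, went from 4.39, 4.69 and 2.80 CPM to 34.2, 23.2 and 12.4 CPM (log2 difference 2.55 ± 0.38, adjusted p = 0.00235), the largest rise under the naming rule. Cdo1, which oxidises cysteine on the way to taurine, went from 17.0, 14.3 and 12.4 CPM to 56.0, 56.6 and 53.1 CPM (log2 difference 1.92 ± 0.16, adjusted p = 0.000444). Its 3 treated libraries lay above the Control libraries too, at 44.2, 31.1 and 45.0 CPM. Fam180a went from 13.8, 8.27 and 8.39 CPM to 46.6, 42.9 and 52.3 CPM (log2 difference 2.22 ± 0.18, adjusted p = 0.000444).

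The other large rises included a secreted ligand and a receptor subunit. Wnt4, a secreted Wnt ligand, stood at 25.4, 16.3 and 20.5 CPM with PDGF-BB and 78.6, 67.5 and 63.2 CPM with PTUPB (log2 difference 1.75 ± 0.16, adjusted p = 0.000562), below the Control libraries at 111, 91.0 and 99.2 CPM. Lifr, the receptor subunit for leukaemia inhibitory factor, stood at 11.9, 12.2 and 7.18 CPM and 35.2, 36.5 and 31.6 CPM (log2 difference 1.73 ± 0.23, adjusted p = 0.00162). No PDGF-BB library reached a treated one for either gene. Parm1, a mucin-like membrane protein, rose by 1.85 ± 0.27, Kazn, the desmosome-associated kazrin, by 1.82 ± 0.34 and Fam169b by 1.98 ± 0.20 on the log2 scale. Akr1c15, an aldo-keto reductase, rose by 2.03 ± 0.43, and it has close relatives with which reads may be shared, so its level is uncertain. Serpina12, the serpin vaspin, rose by 1.99 ± 0.55 with an adjusted p of 0.0329 and was not called without PDGF-BB replicate 2 or 3 or PDGF-BB+PTUPB replicate 1, 2 or 3 (adjusted p from 0.0507 to 0.122). Without PDGF-BB replicate 1, its highest PDGF-BB library, its log2 difference was 2.61.

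**Figure D2:**
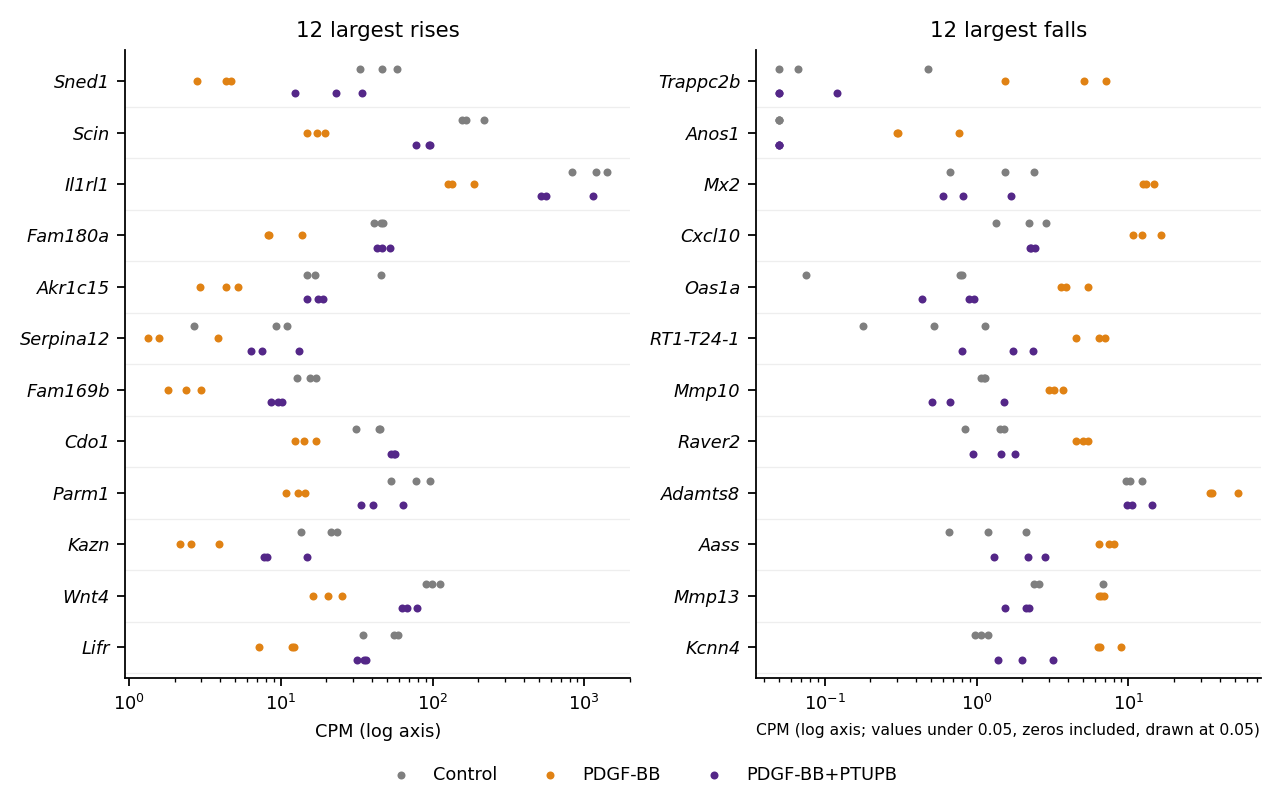
CPM in every library (log axis, 1 point per library, 3 per group) for the 12 largest rises and the 12 largest falls. For each gene the PDGF-BB libraries and the PDGF-BB+PTUPB libraries do not overlap.

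Among the largest falls were antiviral genes and matrix proteases, most of them at low levels. Mx2, an interferon-induced GTPase, was read at 12.4, 14.8 and 13.1 CPM with PDGF-BB, 1.68, 0.602 and 0.815 CPM with PTUPB and 0.674, 1.55 and 2.39 CPM in Control (log2 difference -3.71 ± 0.41, adjusted p = 0.00067). Cxcl10, a chemokine induced by interferon, went from 12.2, 16.5 and 10.7 CPM to 2.26, 2.41 and 2.30 CPM (log2 difference -2.49 ± 0.26, adjusted p = 0.000576). For both the treated libraries overlapped the Control libraries, which for Cxcl10 read 1.35, 2.20 and 2.86 CPM. Adamts8, a secreted metalloproteinase, went from 34.6, 35.6 and 52.6 CPM to 9.76, 14.2 and 10.5 CPM (log2 difference -1.83 ± 0.20, adjusted p = 0.000624). Kcnn4 encodes the calcium-activated potassium channel KCa3.1, known from proliferating smooth muscle cells, and went from 6.55, 6.33 and 8.99 CPM to 1.38, 1.99 and 3.19 CPM (log2 difference -1.74 ± 0.29, adjusted p = 0.00362). The collagenase gene Mmp13 fell by 1.76 ± 0.38 and the stromelysin gene Mmp10 by 1.85 ± 0.35 on the log2 scale. Mmp13 was not called without PDGF-BB+PTUPB replicate 1 (adjusted p = 0.0536), and without PDGF-BB+PTUPB replicate 2 the log2 difference of Mmp10 was -2.48. Aass, the first enzyme of lysine breakdown, fell by 1.79 ± 0.36, and Raver2, an RNA-binding protein, by 1.83 ± 0.28.

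For 4 of the 12 largest falls the level itself is uncertain. Trappc2b summed to 182 counts in the PDGF-BB libraries, 2 in the PDGF-BB+PTUPB libraries and 9 in Control, a ratio of 101 with an exact 95% interval of 27.5 to 837 that covers counting error only. Anos1, which encodes the matrix protein anosmin, summed to 18 counts with PDGF-BB and 0 in the other groups. Set against a floor of 3 counts over the group, it was at least 6.64-fold lower with PTUPB. Anos1 passed the filter for tested genes through the PDGF-BB libraries alone, so it could enter only as a fall. Anos1 was annotated with 231 exonic bases, and was not called without PDGF-BB replicate 1 or 2 or PDGF-BB+PTUPB replicate 1, 2 or 3 (adjusted p from 0.0519 to 0.0783). Oas1a, an interferon-induced oligoadenylate synthetase, fell by 2.47 ± 0.48 and RT1-T24-1, an MHC class I gene, by 1.86 ± 0.45. RT1-T24-1 was not called without PDGF-BB replicate 1 or PDGF-BB+PTUPB replicate 1 or 2 (adjusted p from 0.0521 to 0.0699). Trappc2b, Oas1a and RT1-T24-1 belong to families with near-identical members, and how reads were divided among them is not given in the sources used here.

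Measured in CPM rather than in fold, the largest gains lay mostly in genes for abundant matrix and secreted products. The summed gain of all called genes was 65900 CPM, of which 22.6% lay in 8 genes, and the genes that fell dropped by 39700 CPM in sum, of which 17.5% lay in 8 genes. Mmp2, the gelatinase that degrades basement membrane collagen, went from 3439, 2959 and 3483 CPM to 5648, 5249 and 5021 CPM (log2 difference 0.69 ± 0.14, adjusted p = 0.00985). C3, the central complement protein, went from 5322, 4913 and 4952 CPM to 8646, 8378 and 7383 CPM (log2 difference 0.68 ± 0.10, adjusted p = 0.00237). For both genes every treated library lay above every PDGF-BB library. Lrp1, an endocytic receptor that binds PDGF receptor beta, went from 2785, 2836 and 2540 CPM to 4462, 4876 and 4207 CPM (log2 difference 0.73 ± 0.13, adjusted p = 0.00468). Ccdc80, a secreted matrix protein, rose by 0.64 ± 0.11, Lcn2, the iron-scavenging lipocalin, by 0.63 ± 0.12 and Ltbp2, a microfibril protein, by 0.56 ± 0.12. Ccn2, a matricellular growth factor, and Sparc, a collagen-binding glycoprotein, rose by 0.48 ± 0.13 and 0.29 ± 0.08. Ccn2 was not called without PDGF-BB replicate 1 or 2 or PDGF-BB+PTUPB replicate 2 or 3 (adjusted p from 0.0594 to 0.0919). Sparc was not called without Control replicate 3, PDGF-BB replicate 1 or 2 or PDGF-BB+PTUPB replicate 1, 2 or 3 (adjusted p from 0.0601 to 0.135), nor under scaling to library totals.

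The losses in CPM were led by a collagen, and the osteopontin gene was among the largest. Col3a1, the type III collagen chain of the artery wall, went from 4944, 5486 and 4977 CPM to 2300, 2769 and 3382 CPM (log2 difference -0.87 ± 0.15, adjusted p = 0.00481), against 2239, 2530 and 1827 CPM in Control. Spp1, which encodes osteopontin and marks synthetic smooth muscle cells, went from 1564, 1811 and 1518 CPM to 825, 841 and 874 CPM (log2 difference -0.95 ± 0.09, adjusted p = 0.000562). The treated Spp1 libraries lay between the PDGF-BB libraries and the Control libraries at 556, 623 and 595 CPM. Anxa2, a calcium-dependent membrane-binding protein, went from 1559, 1577 and 1937 CPM to 779, 862 and 1009 CPM (log2 difference -0.94 ± 0.12, adjusted p = 0.00119). The glycolytic genes Eno1, Ldha and Pkm fell by 0.54 ± 0.11, 0.58 ± 0.11 and 0.34 ± 0.09, the beta-tubulin gene Tubb5 by 0.58 ± 0.12 and the stearoyl-CoA desaturase gene Scd2 by 0.82 ± 0.15. Pkm was not called without PDGF-BB+PTUPB replicate 1, 2 or 3 (adjusted p from 0.0618 to 0.108).

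**Figure D3:**
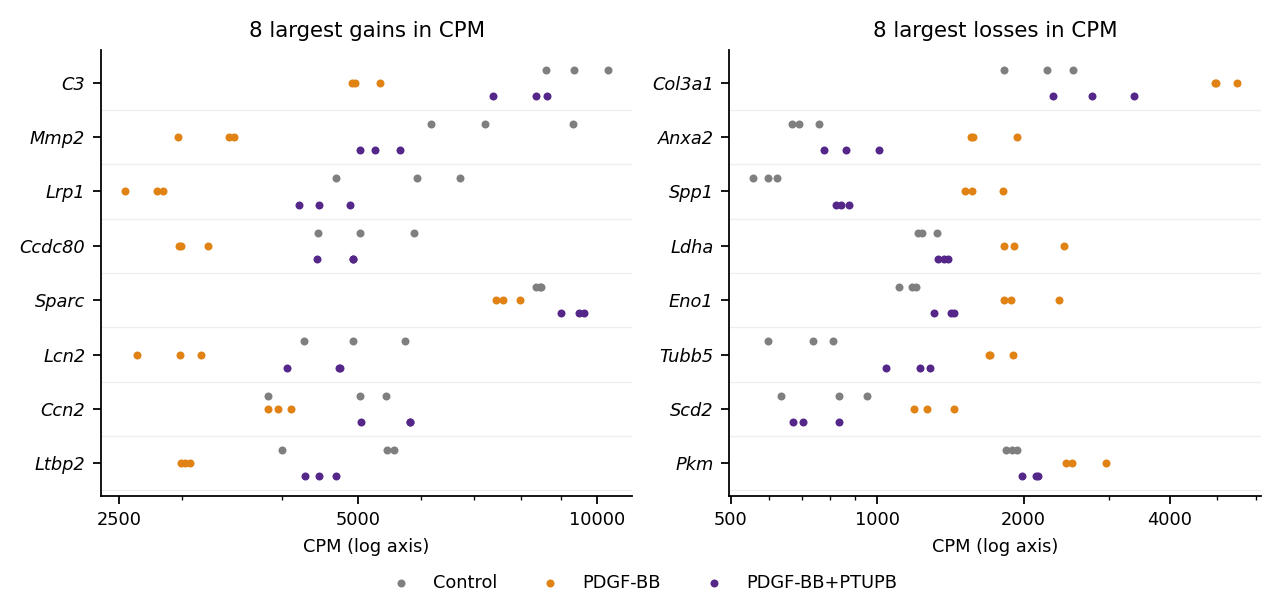
CPM in every library (log axis, 1 point per library) for the 8 genes with the largest gain and the 8 with the largest loss in mean CPM among called genes. The PDGF-BB+PTUPB libraries lie above the PDGF-BB libraries for all 8 gains and below them for all 8 losses.

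Genes were then grouped in 66 lists by function. The counts below are of tested members, to be read against the 8.28% of all tested genes that rose, the 10.0% that fell and a median log2 difference of 0.01 over all of them. They describe the members and are not a test of a list. Of 48 list counts of 1 or 2, 35 moved by over 1.5 times in at least 1 fit without 1 library and 21 went to 0, and 10 counts of 0 became 1.

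**Figure D4:**
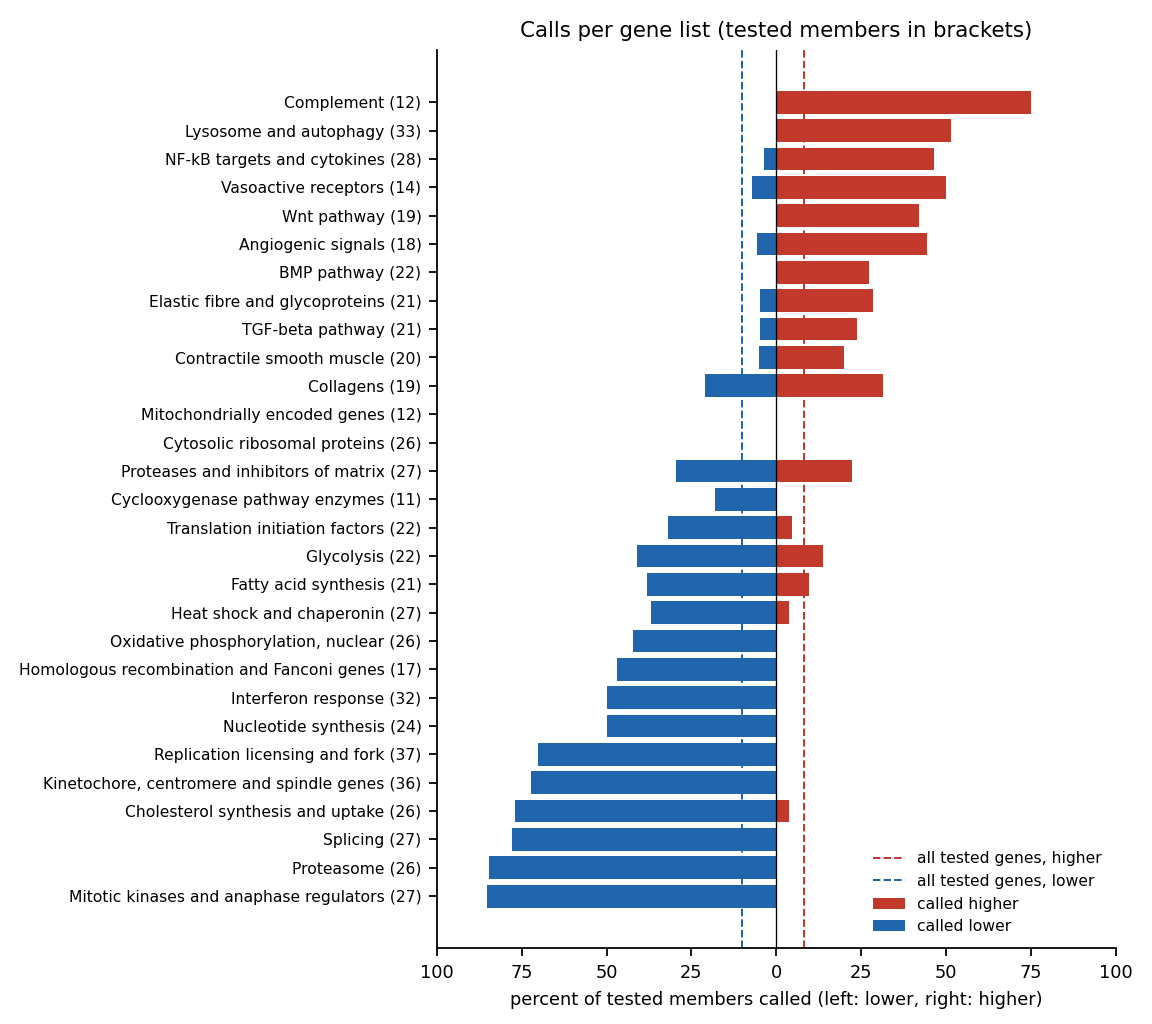
Percent of the tested members of 29 gene lists called lower (left) and higher (right) with PTUPB, with dashed lines at the 10.0% and 8.28% of all tested genes. Mitotic, proteasome, splicing, cholesterol, kinetochore and replication lists lie at the lower end, and complement, lysosome and NF-kB lists at the higher end.

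Genes of DNA synthesis and mitosis were lower with PTUPB. The difference was negative for 37 of 37 tested genes of the replication list, 26 of 27 of the mitotic list and 36 of 36 of the kinetochore list. In the replication list 26 of 37 members fell and 0 rose (median log2 difference -0.83), in the mitotic kinase and anaphase list 23 of 27 fell and 0 rose (median -0.96), and in the kinetochore and spindle list 26 of 36 fell and 0 rose (median -1.08). Summed over the mitotic list, the level was 1150 to 1350 CPM in the PDGF-BB libraries, 566 to 700 CPM with PTUPB and 225 to 313 CPM in Control, so the treated libraries lay above the Control range. In such bulk samples a smaller share of dividing cells and less RNA per dividing cell cannot be told apart. Without PDGF-BB+PTUPB replicate 1 the replication, mitotic and kinetochore lists had 16, 16 and 17 members that fell, and without PDGF-BB replicate 3 the kinetochore list had 34.

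Cks2, which binds cyclin-dependent kinases and is needed for anaphase, stood at 38.9, 34.4 and 34.5 CPM with PDGF-BB, 13.3, 16.6 and 16.2 CPM with PTUPB and 5.46, 6.20 and 6.91 CPM in Control (log2 difference -1.22 ± 0.12, adjusted p = 0.000562). The groups did not overlap, and the treated libraries lay between the PDGF-BB and Control libraries. Knstrn, a kinetochore adaptor, went from 58.5, 59.4 and 50.6 CPM to 19.9, 24.6 and 24.6 CPM (log2 difference -1.29 ± 0.13, adjusted p = 0.000576). Kif22, the chromokinesin that moves chromosome arms, went from 82.2, 82.6 and 83.7 CPM to 27.8, 35.9 and 37.6 CPM (log2 difference -1.29 ± 0.15, adjusted p = 0.000939). Mad2l1, the spindle checkpoint protein MAD2, fell by 1.23 ± 0.16 and Cenpw, a centromere protein, by 1.47 ± 0.17. Birc5, the survivin of the chromosomal passenger complex, and Cdc20, the activator of the anaphase-promoting complex, fell by 1.61 ± 0.17 and 1.41 ± 0.15.

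In the replication list Rfc4, a subunit of the clamp loader, went from 26.1, 24.0 and 30.8 CPM to 10.8, 13.4 and 14.0 CPM (log2 difference -1.08 ± 0.13, adjusted p = 0.000998) and Prim1, the primase subunit, from 39.0, 41.9 and 45.5 CPM to 19.4, 22.9 and 22.3 CPM (log2 difference -0.97 ± 0.10, adjusted p = 0.000576). Mcm7, a subunit of the replicative helicase, went from 48.9, 58.0 and 63.2 CPM to 28.6, 32.3 and 35.1 CPM (log2 difference -0.83 ± 0.11, adjusted p = 0.00187), and its treated libraries lay above the Control libraries at 26.4, 25.9 and 23.2 CPM. Of 24 nucleotide synthesis genes 12 fell and 0 rose (median -0.40), among them Dut, which removes dUTP, by 0.97 ± 0.12. Of 17 homologous recombination and Fanconi genes 8 fell and 0 rose (median -0.81), among them Fanci by 1.22 ± 0.23. That count was 3 without PDGF-BB+PTUPB replicate 1 and 4 without PDGF-BB+PTUPB replicate 2. Among 10 condensin, topoisomerase and proliferation marker genes 2 fell, Ncapd2 (log2 difference -1.07 ± 0.17, adjusted p = 0.00287) and Ncapd3 (log2 difference -0.68 ± 0.18, adjusted p = 0.0276), whereas 8 fell without PDGF-BB replicate 3. Ncapd3 was not called without PDGF-BB replicate 1 or 2 or PDGF-BB+PTUPB replicate 1 or 3 (adjusted p from 0.0742 to 0.107). For Mki67, the proliferation marker Ki-67, the PDGF-BB libraries read 148, 185 and 56.8 CPM, with replicate 3 the low one, its treated libraries read 70.2, 71.5 and 78.9 CPM, the groups overlapped and the gene was not called with edgeR on all libraries (log2 difference -0.82 ± 0.39, adjusted p = 0.174). It was called lower without PDGF-BB replicate 3 (log2 difference -1.18, adjusted p = 0.0159) and with the trend of each library with exonic length removed (-0.95, adjusted p = 0.0423).

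Inhibitors of the cell cycle did not move as 1 group. Cdkn3, a phosphatase of cyclin-dependent kinases, went from 68.3, 78.5 and 75.7 CPM to 18.7, 24.9 and 34.1 CPM (log2 difference -1.52 ± 0.19, adjusted p = 0.00119), and Cdkn2a, the INK4A and ARF locus, went from 6.47, 6.18 and 8.39 CPM to 3.21, 3.98 and 3.48 CPM (log2 difference -0.98 ± 0.21, adjusted p = 0.0108). Cdkn1a, the p21 gene, fell by 0.48 ± 0.09. Gas1, a growth arrest protein of the cell surface, rose from 20.5, 14.8 and 13.9 CPM to 52.4, 32.2 and 33.1 CPM (log2 difference 1.26 ± 0.22, adjusted p = 0.00448). In all, 4 of 10 members fell and 1 rose. Of 21 G1 cyclin and E2F genes 7 fell and 0 rose, and the count that fell was 3 without PDGF-BB+PTUPB replicate 1, 2 or 3. Ccnd1, cyclin D1, went from 207, 239 and 299 CPM to 142, 161 and 157 CPM (log2 difference -0.69 ± 0.14, adjusted p = 0.00905), and its treated libraries overlapped the Control libraries at 166, 122 and 145 CPM. Mybl2, the B-MYB factor that turns on mitotic genes, fell by 1.19 ± 0.25, and was not called without PDGF-BB+PTUPB replicate 1 (adjusted p = 0.0505).

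Promoter sequences of lists that fell are shown with short motifs. The lists were chosen by function, and the motif printed for a list was paired with it by design. Motif shares here and below run over all tested members with a promoter, called or not. They describe how the lists are made up and not the change with PTUPB. Promoters were taken from RefSeq (GRCr8), from 250 bases before to 50 bases after a transcript start, for the 24206 symbols with 1 entry, which 7938 of the tested genes matched. Motifs were searched on both strands. The cell cycle homology region (CHR, TTNGAA) was found in 15 of 20 promoters of the mitotic list (75.0%) and 28 of 33 of the kinetochore list (84.8%), against 29.2% of tested genes and 40.6% of all promoters. Of the other lists searched, the CHR was in 13 of 24 interferon promoters (54.2%) and 3 of 5 complement promoters, and in between 20.0% and 39.1% of the replication, cholesterol, contractile, lysosome and proteasome promoters. The CCAAT box (CCAAT) was found in 70.0% and 57.6% of the mitotic and kinetochore promoters, against 38.4% of tested genes and 37.8% of all promoters, and in 62.5% of the replication and 57.1% of the contractile promoters. The E2F site (TTTNNCGC) was found in 15 of 32 promoters of the replication list (46.9%), against 9.1% of tested genes and 5.32% of all promoters. Over all called genes the contrast was smaller: the CHR was in 37.9% of the 842 promoters of genes that fell and 28.9% of the 644 of genes that rose. A match is a description of these letters and not a binding site.

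The promoters below are those of the called member with the smallest p in its list that holds the motif. Each shows the 250 bases before the start, on the strand of the gene, with matches in capitals. In Cks2 (chr17:13727520-13727769, minus strand) the capitals mark CHR and CCAAT matches, and in Mcm7 (chr12:22163179-22163428, minus strand) they mark E2F and CCAAT matches, of which 1 pair overlaps by 1 base. The CHR match of Cks2 nearest the start begins at -19, counted in bases from the start, and the overlapping E2F match of Mcm7 at -52.
Cks2: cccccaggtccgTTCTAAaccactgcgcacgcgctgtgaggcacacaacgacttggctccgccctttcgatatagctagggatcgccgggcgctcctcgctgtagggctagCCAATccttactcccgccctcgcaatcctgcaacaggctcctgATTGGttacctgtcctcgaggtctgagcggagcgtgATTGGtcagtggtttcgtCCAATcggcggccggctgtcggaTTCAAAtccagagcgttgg
Mcm7: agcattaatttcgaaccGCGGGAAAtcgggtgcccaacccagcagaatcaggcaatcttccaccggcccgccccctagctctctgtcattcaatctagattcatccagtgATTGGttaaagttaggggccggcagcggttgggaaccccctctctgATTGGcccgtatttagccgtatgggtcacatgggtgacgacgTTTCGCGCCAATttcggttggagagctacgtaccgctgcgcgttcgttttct

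Most splicing and proteasome genes were lower as well. Of 27 splicing genes 21 fell and 0 rose (median -0.40). Snrpa1, a protein of the U2 small nuclear ribonucleoprotein, went from 41.0, 38.4 and 44.5 CPM to 16.5, 18.1 and 20.5 CPM (log2 difference -1.17 ± 0.12, adjusted p = 0.000576), and Snrpf, a core Sm protein, from 38.7, 41.4 and 49.5 CPM to 19.8, 22.5 and 20.9 CPM (log2 difference -1.04 ± 0.12, adjusted p = 0.000939). Hnrnpa1, an RNA-binding splicing regulator, went from 626, 578 and 630.3 CPM to 241, 274 and 335 CPM (log2 difference -1.11 ± 0.13, adjusted p = 0.000863), and it has many processed copies in the genome that may share its reads. The splicing count was 11 without PDGF-BB+PTUPB replicate 2 and 12 without PDGF-BB+PTUPB replicate 1. With the trend of each library with exonic length removed 23 splicing genes fell, and without PDGF-BB replicate 3, which read short genes higher, 16 did.

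The proteasome list was uniform and its changes small. Of 26 subunits 22 fell and 0 rose, with log2 differences between -0.51 and -0.13 over all 26. Psma1, a subunit of the core particle, went from 142, 138 and 169.6 CPM to 101, 102 and 116 CPM (log2 difference -0.50 ± 0.10, adjusted p = 0.00714), and Psmc3, an ATPase of the regulatory particle, from 204, 190.1 and 237 CPM to 145, 156 and 151 CPM (log2 difference -0.48 ± 0.09, adjusted p = 0.00509). PDGF-BB replicate 3 was the highest library for both. Without that library 21 subunits fell, and with the length trend removed 24 did. The count was 10 without PDGF-BB+PTUPB replicate 1 and 11 without PDGF-BB+PTUPB replicate 2 or 3, and 0 of 26 passed a test against a change of 1.2-fold. Of 27 heat shock and chaperonin genes 10 fell and 1 rose, with Hspd1, the mitochondrial chaperonin, at 472, 459.9 and 493 CPM against 325, 337 and 336 CPM (log2 difference -0.52 ± 0.06, adjusted p = 0.00106) and Cct8, a subunit of the cytosolic chaperonin, falling by 0.39 ± 0.06. The count that fell was 6 without PDGF-BB+PTUPB replicate 1 or 2.

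Genes of the ribosome itself were not called with edgeR on all libraries. Of 26 cytosolic ribosomal protein genes 0 rose and 0 fell with edgeR (median -0.09), 0 had an unadjusted p under 0.05 and DESeq2 called 0. With the length trend removed 2 were called higher, and without Control replicate 2 there was 1 called lower. Rplp0, a protein of the ribosomal stalk, read 1894, 1807 and 2251 CPM and 1855, 1895 and 2019 CPM, with overlap (log2 difference -0.05 ± 0.10, adjusted p = 0.787). Of 25 ribosome biogenesis genes 2 fell, Fbl, which methylates ribosomal RNA (log2 difference -0.68 ± 0.11, adjusted p = 0.00326), and Polr1c, a subunit shared by RNA polymerases I and III (log2 difference -0.39 ± 0.09, adjusted p = 0.0167). Of 22 translation factors 7 fell and 1 rose. Eif5a, the hypusinated factor, fell by 0.68 ± 0.10 and Eif4a2, an RNA helicase of initiation, rose by 0.53 ± 0.09. The count of translation factors that fell was 2 without PDGF-BB+PTUPB replicate 1 or 3 and 3 without PDGF-BB+PTUPB replicate 2. Polr1c was not called without PDGF-BB+PTUPB replicate 1, 2 or 3 (adjusted p from 0.0522 to 0.0649).

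Of the metabolic lists plotted, cholesterol synthesis had the largest share of members called, with 20 of 26 members that fell and 1 that rose (median -0.70). Its summed level was 2520 to 2940 CPM with PDGF-BB, 1590 to 1820 CPM with PTUPB and 1620 to 2020 CPM in Control. Fdft1, squalene synthase, went from 117, 121 and 138 CPM to 74.2, 72.5 and 75.5 CPM (log2 difference -0.76 ± 0.10, adjusted p = 0.00128). Its treated libraries overlapped the Control libraries. The count was 13 without PDGF-BB+PTUPB replicate 2. Of 21 fatty acid synthesis genes 8 fell and 2 rose, with Scd, stearoyl-CoA desaturase, going from 80.7, 88.3 and 98.8 CPM to 29.4, 24.1 and 39.4 CPM (log2 difference -1.53 ± 0.22, adjusted p = 0.00222) and Acsl3, an acyl-CoA synthetase of lipid droplets, falling by 0.72 ± 0.11. Gpam, the first enzyme of glycerolipid synthesis, rose from 28.3, 28.4 and 24.6 CPM to 58.6, 67.9 and 57.1 CPM (log2 difference 1.18 ± 0.13, adjusted p = 0.000732). The count that fell was 5 without PDGF-BB+PTUPB replicate 1 or 2.

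In the LXR target and sterol efflux list 3 of 11 genes rose and 1 fell. The count that rose was 1 without PDGF-BB+PTUPB replicate 1 or 2, and the count that fell was 0 in 7 of the 9 fits without 1 library. Mylip, the ligase that degrades the LDL receptor, rose from 35.8, 29.9 and 26.6 CPM to 58.6, 48.3 and 50.8 CPM (log2 difference 0.77 ± 0.14, adjusted p = 0.00601), Ch25h, which makes 25-hydroxycholesterol, rose by 0.58 ± 0.14, and Cyp27a1, sterol 27-hydroxylase, rose by 0.43 ± 0.12. Ch25h was not called without PDGF-BB+PTUPB replicate 1 or 2 (adjusted p from 0.0615 to 0.0727), nor Cyp27a1 without PDGF-BB replicate 1, 2 or 3 or PDGF-BB+PTUPB replicate 1, 2 or 3 (adjusted p from 0.0592 to 0.116). Of 17 PPAR target and fatty acid oxidation genes 1 rose, Lpl, lipoprotein lipase, from 194, 144 and 151 CPM to 336, 329.8 and 238 CPM (log2 difference 0.89 ± 0.18, adjusted p = 0.00819). Vldlr, a lipoprotein receptor kept in the ATF4 list, rose from 173, 179 and 155 CPM to 301, 325 and 315 CPM (log2 difference 0.89 ± 0.10, adjusted p = 0.000749). The sterol regulatory element (TCACNCCAC) was found in 0 of 19 promoters of the cholesterol list, against 1.15% of tested genes, while the CCAAT box was found in 14 of them (73.7%). No match says only that these letters are not in this window.

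In energy metabolism 9 of 22 glycolysis genes fell and 3 rose. Pfkp, phosphofructokinase, went from 100.4, 101 and 123 CPM to 67.5, 77.7 and 77.1 CPM (log2 difference -0.54 ± 0.10, adjusted p = 0.00538) and Pgam1, phosphoglycerate mutase, from 1450, 1389 and 1736 CPM to 1084, 1132 and 1107 CPM (log2 difference -0.46 ± 0.09, adjusted p = 0.00835). The count that fell was 4 without PDGF-BB+PTUPB replicate 1, and the count that rose was then 1. Of 26 nuclear genes of oxidative phosphorylation 11 fell and 0 rose (median -0.33), with Atp5f1b, the catalytic subunit of ATP synthase, at 1046, 1010 and 1256 CPM against 735, 792 and 803 CPM (log2 difference -0.51 ± 0.09, adjusted p = 0.00509) and Cycs, cytochrome c, falling by 0.60 ± 0.10. That count was 4 without PDGF-BB+PTUPB replicate 1, 5 without PDGF-BB replicate 3 or PDGF-BB+PTUPB replicate 2 or 3 and 6 without PDGF-BB replicate 1. Of 12 mitochondrially encoded genes 0 rose and 0 fell with edgeR, 1 was lower at an unadjusted p under 0.05, DESeq2 called 0, and without Control replicate 2 there was 1 called lower. Mt-co3, a cytochrome oxidase subunit, read 6357, 6172 and 5708 CPM and 6251, 5714 and 6374 CPM, with overlap (log2 difference 0.01 ± 0.11, adjusted p = 0.967). Among 26 ATF4 and serine synthesis genes 5 rose and 2 fell, with Stc2, the stress-induced stanniocalcin, rising by 0.69 ± 0.14 and Phgdh, the first enzyme of serine synthesis, falling by 0.71 ± 0.16. Phgdh was not called without PDGF-BB+PTUPB replicate 1 or 2 (adjusted p from 0.0547 to 0.0596), and the count of this list that rose was 2 without PDGF-BB replicate 1 and 3 without PDGF-BB replicate 2 or PDGF-BB+PTUPB replicate 2 or 3. The count that fell was 0 without PDGF-BB+PTUPB replicate 1 or 2, 1 without PDGF-BB replicate 3 and 4 without Control replicate 2.

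The interferon list fell in part. Of 32 tested members 16 fell and 0 rose (median -0.49), and 31 of 32 differences were negative. Irf7, the factor that amplifies type I interferon responses, was read at 24.6, 25.6 and 35.5 CPM with PDGF-BB, 8.81, 8.37 and 9.41 CPM with PTUPB and 9.06, 8.64 and 9.30 CPM in Control (log2 difference -1.69 ± 0.15, adjusted p = 0.000562). PDGF-BB replicate 3 was the highest library, and the treated libraries overlapped Control. Usp18, a protease that removes ISG15, went from 10.5, 13.8 and 15.3 CPM to 5.83, 5.12 and 3.85 CPM (log2 difference -1.41 ± 0.20, adjusted p = 0.00199). The count was 11 without PDGF-BB+PTUPB replicate 2 and 19 without PDGF-BB replicate 3. In antigen presentation 2 of 12 genes fell and 0 rose, the immunoproteasome subunit Psmb9 (log2 difference -0.73 ± 0.15, adjusted p = 0.00869) and the peptide transporter Tap1 (log2 difference -0.44 ± 0.08, adjusted p = 0.00672).

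The interferon-stimulated response element (GAAANNGAA) was found in 19 of 24 promoters of the interferon list (79.2%), against 7.07% of tested genes and 9.41% of all promoters, and in 28.0% of the lysosome promoters. Irf7 is the called member with the smallest p that holds it. Its promoter (chr1:205800024-205800273, minus strand, RefSeq GRCr8) is printed as the 250 bases before the start with the match, which lies on the opposite strand at -68 bases from the start, in capitals.
Irf7: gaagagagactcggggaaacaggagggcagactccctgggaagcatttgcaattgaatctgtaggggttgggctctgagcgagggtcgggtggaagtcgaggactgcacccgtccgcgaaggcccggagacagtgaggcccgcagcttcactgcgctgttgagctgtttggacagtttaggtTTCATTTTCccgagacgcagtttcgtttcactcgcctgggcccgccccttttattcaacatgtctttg

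Other inflammatory genes rose. In the NF-kB and cytokine list 13 of 28 members rose and 1 fell (median 0.29). Cx3cl1, the membrane-bound chemokine fractalkine, went from 8.94, 5.96 and 7.71 CPM to 25.0, 22.4 and 20.6 CPM (log2 difference 1.59 ± 0.24, adjusted p = 0.0026), and Cxcl12, the chemokine SDF-1, from 1640, 1359 and 1445 CPM to 2760, 2570 and 2360 CPM (log2 difference 0.79 ± 0.10, adjusted p = 0.000998). Ptx3, a long pentraxin of innate immunity, went from 1915, 1793 and 1582 CPM to 3073, 2949 and 2687 CPM (log2 difference 0.72 ± 0.10, adjusted p = 0.00169). For Cx3cl1 and Cxcl12 the treated libraries lay between the PDGF-BB and Control libraries, which read 31.3, 61.9 and 45.1 CPM and 3335, 3540 and 3374 CPM. The 1 member that fell, named after its values were seen, was Nfkb1, a subunit of NF-kB itself, by 0.27 ± 0.07. The count that rose was 8 without PDGF-BB+PTUPB replicate 1.

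Of the lists plotted, complement had the largest share of members that rose, 9 of 12, with 0 that fell (median 0.70). Its summed level was 9930 to 11300 CPM with PDGF-BB, 15400 to 18900 CPM with PTUPB and 19500 to 21900 CPM in Control. C1s and C1r, the proteases that start the classical pathway, went from 2107, 1761 and 1927 CPM to 3685, 3095 and 2994 CPM (log2 difference 0.75 ± 0.13, adjusted p = 0.00407) and from 2055, 1734 and 1873 CPM to 3331, 2821 and 2710 CPM (log2 difference 0.65 ± 0.11, adjusted p = 0.00415). Serping1, the inhibitor of these proteases, went from 374, 303 and 358 CPM to 684, 604 and 516 CPM (log2 difference 0.80 ± 0.14, adjusted p = 0.00453). Treated libraries lay above all PDGF-BB libraries for the 3 genes, below the Control libraries for Serping1 and in overlap with them for C1s and C1r. With PDGF-BB+PTUPB replicate 1 left out, 6 members rose.

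Lysosomal genes formed a second large group that rose. Of 33 lysosome and autophagy genes 17 rose and 0 fell (median 0.30). Ctsa, the protective protein cathepsin A, went from 435, 389 and 456 CPM to 607, 620.5 and 604 CPM (log2 difference 0.52 ± 0.09, adjusted p = 0.0046), and the groups did not overlap. The count was 8 without PDGF-BB+PTUPB replicate 2, 9 without PDGF-BB+PTUPB replicate 1 and 11 without PDGF-BB replicate 2. Against a change of 1.2-fold, 4 of 33 passed the test. The E-box (CACGTG) was found in 7 of 25 promoters of this list (28.0%), against 9.99% of tested genes.

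Matrix genes moved both ways. Of 19 collagens 6 rose and 4 fell. Col14a1, a fibril-associated collagen, went from 6.09, 4.62 and 4.76 CPM to 18.1, 12.4 and 12.3 CPM (log2 difference 1.47 ± 0.30, adjusted p = 0.00928), whereas Col5a3 fell by 0.74 ± 0.12 and Col6a2 by 0.30 ± 0.07, beside the fall of Col3a1 above. The number of collagens that rose was 1 without PDGF-BB replicate 1 or 2 or PDGF-BB+PTUPB replicate 1 or 2, 2 without Control replicate 3 or PDGF-BB+PTUPB replicate 3 and 3 without PDGF-BB replicate 3, and 2 with the length trend removed. The number that fell was 2 without PDGF-BB+PTUPB replicate 1 or 2. Col6a2 was not called without PDGF-BB+PTUPB replicate 1 or 2 (adjusted p from 0.0629 to 0.0662). Of 21 elastic fibre and glycoprotein genes 6 rose and 1 fell, with Fbln5, which organises elastic fibres, going from 169, 159.8 and 171 CPM to 252, 232 and 234 CPM (log2 difference 0.52 ± 0.07, adjusted p = 0.00172) and Ltbp3 rising by 0.35 ± 0.06. That count was 3 without PDGF-BB replicate 1 or 2 or PDGF-BB+PTUPB replicate 2.

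In the basement membrane list 4 of 13 members rose and 2 fell. Lamb2 and Lama4, chains of vascular laminins, rose by 0.65 ± 0.10 and 0.60 ± 0.09. Nid2, which links laminin to collagen IV, went the other way, from 59.2, 65.5 and 62.8 CPM to 17.8, 22.3 and 23.9 CPM (log2 difference -1.55 ± 0.23, adjusted p = 0.00245), and its treated libraries overlapped the Control libraries at 18.9, 7.98 and 12.2 CPM. The number that rose was 2 without PDGF-BB replicate 1 or 2 or PDGF-BB+PTUPB replicate 1, 2 or 3. Sdc1, the cell surface proteoglycan syndecan-1, fell from 240.4, 243 and 281 CPM to 142, 154 and 154 CPM (log2 difference -0.76 ± 0.08, adjusted p = 0.000576) and Prelp, a small leucine-rich proteoglycan, rose by 0.40 ± 0.08.

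Proteases and their inhibitors also moved both ways, with 6 of 27 that rose and 8 that fell. Mmp14, the membrane-bound activator of MMP2, rose from 346, 325 and 372 CPM to 554, 566 and 533 CPM (log2 difference 0.66 ± 0.12, adjusted p = 0.00604), along with Mmp2 above and Timp2, the inhibitor that bridges both, by 0.48 ± 0.08. Mmp16, another membrane-type protease, fell from 103, 116 and 98.4 CPM to 50.2, 47.5 and 57.2 CPM (log2 difference -1.03 ± 0.13, adjusted p = 0.000998). Plau, the urokinase gene, and Serpine2, an inhibitor of thrombin and urokinase, fell by 1.21 ± 0.24 and 0.72 ± 0.13. Of 22 integrin and focal adhesion genes 4 rose and 3 fell. Itga11, a collagen-binding integrin chain, rose from 907, 915 and 808 CPM to 1828, 1645 and 1602 CPM (log2 difference 0.95 ± 0.19, adjusted p = 0.00895), and Itga5, the fibronectin receptor chain, fell from 290.4, 314 and 323 CPM to 212, 217 and 222 CPM (log2 difference -0.51 ± 0.07, adjusted p = 0.00132). The count that rose was 2 without PDGF-BB replicate 3 or PDGF-BB+PTUPB replicate 1 or 2, and the count that fell was 1 without PDGF-BB+PTUPB replicate 1 or 2 and 5 without Control replicate 2.

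Some contractile genes of smooth muscle were called. Of 20 tested members 4 rose and 1 fell, with a median log2 difference of -0.03. Over all tested genes 8.28% rose and 10.0% fell. The count that rose was 2 without PDGF-BB replicate 3 or PDGF-BB+PTUPB replicate 1 or 2. Mylk, the myosin light chain kinase that starts contraction, went from 126, 122 and 117 CPM to 207, 201 and 189 CPM (log2 difference 0.71 ± 0.10, adjusted p = 0.00197), against 250.3, 205 and 269 CPM in Control. Myh11, smooth muscle myosin heavy chain, went from 24.0, 17.6 and 18.2 CPM to 29.6, 29.9 and 27.7 CPM (log2 difference 0.54 ± 0.14, adjusted p = 0.021), and Itga8 rose by 0.72 ± 0.20. Myh11 was not called without PDGF-BB replicate 2 or 3 or PDGF-BB+PTUPB replicate 1 or 2 (adjusted p from 0.0543 to 0.0839), nor Itga8 without PDGF-BB replicate 3 or PDGF-BB+PTUPB replicate 1 or 2 (adjusted p from 0.056 to 0.117). The member that fell, Csrp1, a LIM protein, was named after its values were seen (log2 difference -0.36 ± 0.10, adjusted p = 0.0377). Without Control replicate 3, PDGF-BB replicate 3 or PDGF-BB+PTUPB replicate 1, 2 or 3 the count that fell was 0, and without Control replicate 2 it was 2.

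Acta2, Tagln and Cnn1, the classical contractile markers, were not called with edgeR on all libraries. Acta2, smooth muscle actin, read 632, 609 and 712 CPM with PDGF-BB, 796, 826 and 745 CPM with PTUPB and 1128, 779.5 and 916 CPM in Control (log2 difference 0.28 ± 0.13, adjusted p = 0.158). Its treated libraries lay above the PDGF-BB libraries. It was called higher when the Control libraries were left out of the fit (log2 difference 0.28, adjusted p = 0.0482) and when PDGF-BB replicate 3 and Control replicate 2 were left out (0.35, adjusted p = 0.0179). Tagln, transgelin, read 1908, 1910 and 2275 CPM and 1884, 2174 and 1984 CPM, with overlap (log2 difference -0.01 ± 0.13, adjusted p = 0.96). Cnn1, calponin, read 121, 122 and 134 CPM and 102, 115 and 100.5 CPM (log2 difference -0.24 ± 0.15, adjusted p = 0.301), lower in the treated libraries. The CArG box, the site of serum response factor, was found in 0 of 14 promoters of this list and 1.18% of tested genes. Of 19 transcription factors of smooth muscle identity 1 rose and 1 fell. Klf2, a factor induced by shear stress in endothelium, rose by 0.78 ± 0.23 and Twist1, a mesenchymal factor, fell by 0.65 ± 0.15. Klf2 was not called without PDGF-BB replicate 1, 2 or 3 or PDGF-BB+PTUPB replicate 1, 2 or 3 (adjusted p from 0.0679 to 0.13), nor Twist1 without PDGF-BB+PTUPB replicate 1 (adjusted p = 0.0718). Klf4, which represses contractile genes, read 126, 113 and 124 CPM and 119, 113 and 119.8 CPM, with overlap (log2 difference -0.04 ± 0.09, adjusted p = 0.774). Myocd, the coactivator myocardin, was too low to be tested.

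Receptors for PDGF were higher with PTUPB. Pdgfrb, the receptor that PDGF-BB binds best on smooth muscle, stood at 594, 544 and 573 CPM with PDGF-BB, 932, 912 and 913 CPM with PTUPB and 1179, 1193 and 1146 CPM in Control (log2 difference 0.69 ± 0.07, adjusted p = 0.000562). Pdgfra went from 1017, 923 and 779 CPM to 1629, 1318 and 1204 CPM (log2 difference 0.61 ± 0.13, adjusted p = 0.0115). In both, the 3 groups were ordered without overlap between treated and PDGF-BB libraries, and the Pdgfra libraries with PTUPB reached into the Control range of 1620, 1896 and 1804 CPM. The ligand gene Pdgfc fell from 28.9, 27.0 and 27.1 CPM to 16.7, 15.4 and 19.6 CPM (log2 difference -0.68 ± 0.10, adjusted p = 0.00248). Of 8 ligand, receptor and coreceptor genes 4 rose and 1 fell. Downstream, immediate early and MAPK feedback genes were mostly not called, with 2 of 21 and 1 of 19 that rose and 1 and 2 that fell. Each of the counts that fell was 0 in 3 of the 9 fits without 1 library, the fit without PDGF-BB replicate 3 among them, and the MAPK feedback count that rose was 3 without PDGF-BB+PTUPB replicate 3. Fos rose from 2.62, 2.23 and 2.57 CPM to 6.34, 5.24 and 4.74 CPM (log2 difference 1.13 ± 0.24, adjusted p = 0.0108) and Dusp1, a phosphatase of MAP kinases, from 95.3, 80.9 and 88.8 CPM to 198, 134 and 139.9 CPM (log2 difference 0.83 ± 0.14, adjusted p = 0.00362), with PDGF-BB+PTUPB replicate 1 its highest treated library.

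Other signalling lists held more genes that rose than fell. In the Wnt list 8 of 19 rose and 0 fell: beside Wnt4, Ccn5, a matricellular protein that restrains smooth muscle growth, went from 78.0, 70.7 and 74.6 CPM to 164, 157 and 184 CPM (log2 difference 1.18 ± 0.12, adjusted p = 0.000562) and Sfrp1, a secreted Wnt antagonist, from 51.2, 47.2 and 50.6 CPM to 106, 98.4 and 73.1 CPM (log2 difference 0.90 ± 0.17, adjusted p = 0.00594). In the BMP list 6 of 22 rose and 0 fell. Its targets Id1 and Id3, inhibitors of basic helix-loop-helix factors, rose by 0.68 ± 0.12 and 0.55 ± 0.10, Id2 rose by 1.22 ± 0.25, and the ligand Bmp6 rose from 89.6, 96.8 and 95.4 CPM to 127, 152 and 147 CPM (log2 difference 0.59 ± 0.10, adjusted p = 0.0032). In the TGF-beta list 5 of 21 rose and 1 fell. Tgfbr2, the type II receptor, and Smad7, the inhibitory SMAD, rose by 0.41 ± 0.07 and 0.47 ± 0.10, while Tgfbi, a TGF-beta-induced matrix protein, fell by 1.49 ± 0.39. The TGF-beta count that rose was 2 without PDGF-BB replicate 2 or PDGF-BB+PTUPB replicate 2 or 3 and 3 without Control replicate 3, PDGF-BB replicate 1 or PDGF-BB+PTUPB replicate 1. Tgfbi was not called without PDGF-BB replicate 3 or PDGF-BB+PTUPB replicate 1 or 2 (adjusted p from 0.0675 to 0.0912). Of 10 IGF genes 2 rose and 1 fell, with Irs2, the insulin receptor substrate, rising by 0.52 ± 0.08 and Igfbp4, an IGF-binding protein, falling by 0.72 ± 0.12.

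Of 14 vasoactive receptors 7 rose and 1 fell, and of 18 angiogenic genes 8 rose and 1 fell. Adm, the vasodilator peptide adrenomedullin, went from 76.5, 64.4 and 65.6 CPM to 168, 157 and 129 CPM (log2 difference 1.14 ± 0.11, adjusted p = 0.000562), against 173, 182 and 186 CPM in Control. Vegfd went from 143, 124 and 107 CPM to 301, 258 and 240.4 CPM (log2 difference 1.10 ± 0.13, adjusted p = 0.000901) and Vegfa rose by 0.56 ± 0.07. All 3 are secreted, and for each the libraries of the compared groups did not overlap. Htr2b, a serotonin receptor, went from 2.23, 2.76 and 2.19 CPM to 8.09, 6.08 and 6.75 CPM (log2 difference 1.54 ± 0.28, adjusted p = 0.00569), and Ednrb, the endothelin B receptor, from 32.5, 28.0 and 20.3 CPM to 64.3, 54.0 and 41.5 CPM (log2 difference 0.98 ± 0.19, adjusted p = 0.00775). The natriuretic peptide receptors Npr2, which signals through cyclic GMP, and Npr3, which clears the peptides, rose by 0.59 ± 0.07 and 0.93 ± 0.14. The bradykinin receptor gene Bdkrb2 fell from 17.4, 18.4 and 25.6 CPM to 11.5, 8.43 and 8.45 CPM (log2 difference -1.12 ± 0.18, adjusted p = 0.0035). The vasoactive count that rose was 4 without PDGF-BB replicate 1 or PDGF-BB+PTUPB replicate 1 or 2, and the angiogenic count was 5 without PDGF-BB replicate 1 or PDGF-BB+PTUPB replicate 1 or 2. Among 12 FGF and EGF family genes 2 rose, Tgfa, an EGF receptor ligand, from 244, 238 and 211 CPM to 362, 370.5 and 371 CPM (log2 difference 0.67 ± 0.12, adjusted p = 0.00543), and Fgf7, by 0.69 ± 0.19. Fgf7 was not called without PDGF-BB+PTUPB replicate 1, 2 or 3 (adjusted p from 0.0618 to 0.104).

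Hmox1, haem oxygenase 1 and an NRF2 target, rose from 81.9, 96.9 and 93.7 CPM to 199, 209.7 and 222 CPM (log2 difference 1.21 ± 0.25, adjusted p = 0.00869), while of 23 NRF2 targets 2 rose and 5 fell. Prdx1, a peroxiredoxin, and Tkt, transketolase, fell by 0.48 ± 0.10 and 0.44 ± 0.09. The count of NRF2 targets that fell was 2 without PDGF-BB+PTUPB replicate 1 or 2 and 3 without PDGF-BB replicate 1 or 3 or PDGF-BB+PTUPB replicate 3. Of 22 p53 targets 6 fell and 1 rose, with Mdm2, the ligase that degrades p53, falling by 0.59 ± 0.09 and Phlda3 by 0.47 ± 0.09. Of 22 endoplasmic reticulum chaperone and quality control genes 4 rose and 3 fell. Herpud1, a component of the degradation machinery, rose from 96.8, 97.3 and 104 CPM to 145, 158 and 148 CPM (log2 difference 0.60 ± 0.07, adjusted p = 0.000939), while Pdia4, a folding enzyme, fell by 0.46 ± 0.08. The count that rose was 2 without PDGF-BB+PTUPB replicate 1. Of 16 clock genes Per2 rose by 0.37 ± 0.09 and Nr1d1, the repressor REV-ERB alpha, fell by 0.52 ± 0.10. Per2 was not called without PDGF-BB replicate 1 or PDGF-BB+PTUPB replicate 2 or 3 (adjusted p from 0.0632 to 0.0856).

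Markers of other cell types were checked beside these groups. Of 13 endothelial markers 9 stayed under 1 CPM in all 9 libraries, and 6 read 0 counts, Cdh5, Tie1, Kdr, Emcn, Robo4 and Cldn5. Flt1 read 31.5 to 73.2 CPM and Egfl7 17.6 to 25.1 CPM, while Tek and Erg reached 1.5 and 1.54 CPM. Of 14 macrophage and leukocyte markers 11 stayed under 1 CPM, and 5 read 0 counts, Ptprc, Tyrobp, Cd3e, Cd79a and C1qa. Cd14 read 21.6 to 33.4 CPM and Cd68 2.62 to 5.54 CPM. The summed macrophage list was 28 to 30 CPM with PDGF-BB and 37.7 to 39.9 CPM with PTUPB, mostly Cd14, and Lyz2, lysozyme, rose from 0.616, 0.819 and 0.68 CPM to 2.19, 2.17 and 2.15 CPM (log2 difference 1.61 ± 0.24, adjusted p = 0.00234). Adventitial fibroblast markers rose for 6 of 10 tested members (median 0.56), and their summed level was 2490 to 3290 CPM with PDGF-BB, 4010 to 4720 CPM with PTUPB and 4460 to 5830 CPM in Control. Scara5, a ferritin receptor of fibroblasts, went from 546, 451 and 464 CPM to 1192, 974 and 993 CPM (log2 difference 1.11 ± 0.10, adjusted p = 0.000562), and Dpep1, a dipeptidase, from 95.8, 85.9 and 97.0 CPM to 174, 163 and 147 CPM (log2 difference 0.80 ± 0.12, adjusted p = 0.0024). Of its 14 members, Dpt, Cd34, Dpp4 and C7 stayed under 1 CPM in every library. Col14a1 and Pdgfra are also members of this list. These fibroblast genes moved with the complement, matrix and Wnt genes above, and their part in those results was not tested.

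Counts of the remaining lists follow, to be read against the 8.28% of all tested genes that rose and the 10.0% that fell. Of 16 genes of the synthetic smooth muscle state 3 rose and 3 fell, of 17 hypoxia genes 4 rose and 1 fell, of 19 collagen processing enzymes 3 rose and 2 fell, of 15 ion channel genes 1 rose and 1 fell, and of 6 Notch genes 1 rose and 0 fell. The hypoxia count that rose was 2 without Control replicate 3, PDGF-BB replicate 2 or PDGF-BB+PTUPB replicate 1, 2 or 3, and the collagen processing count was 1 without PDGF-BB+PTUPB replicate 2. The collagen processing count that fell was 1 without PDGF-BB replicate 3 and 0 in 4 of the 9 fits without 1 library. The Notch count was 0 in 7 of these fits, the hypoxia count that fell was 0 in 5, and the ion channel count that rose was 3 without Control replicate 2. Among tested markers, 1 of 2 endothelial genes rose, 1 of 2 Schwann and neural genes rose and the other fell, and the 1 adipocyte gene, Lpl, rose. The endothelial call was lost in 7 of the 9 fits without 1 library, and the Schwann and neural calls in 4 and 5. With edgeR 0 of 4 chondrogenic, 0 of 5 pericyte and 0 of 1 striated muscle genes were called, at an unadjusted p under 0.05 it was 1, 2 and 1, and DESeq2 called 0, 1 and 0. Without Control replicate 2 edgeR called 1, 2 and 0.

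The direction of calls followed gene length. Tested genes were split into 4 equal bins of exonic length. In the bin of the shortest genes 3.97% rose and 12.3% fell, and in that of the longest 12.1% rose and 6.04% fell. Median log2 differences ran from -0.09 in the shortest bin to 0.09 in the longest. Without PDGF-BB replicate 3 they ran from -0.03 to 0.03. They ran from -0.107 to 0.111 without PDGF-BB replicate 1 and from -0.143 to 0.119 without PDGF-BB replicate 2. With the trend of each library with exonic length removed, 978 genes rose and 1328 fell. Of the list counts of 3 or more, the nuclear respiratory, collagen, NRF2, integrin and contractile counts moved by over 1.5 times without PDGF-BB replicate 3, as did the condensin count of 2.

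**Figure D5:**
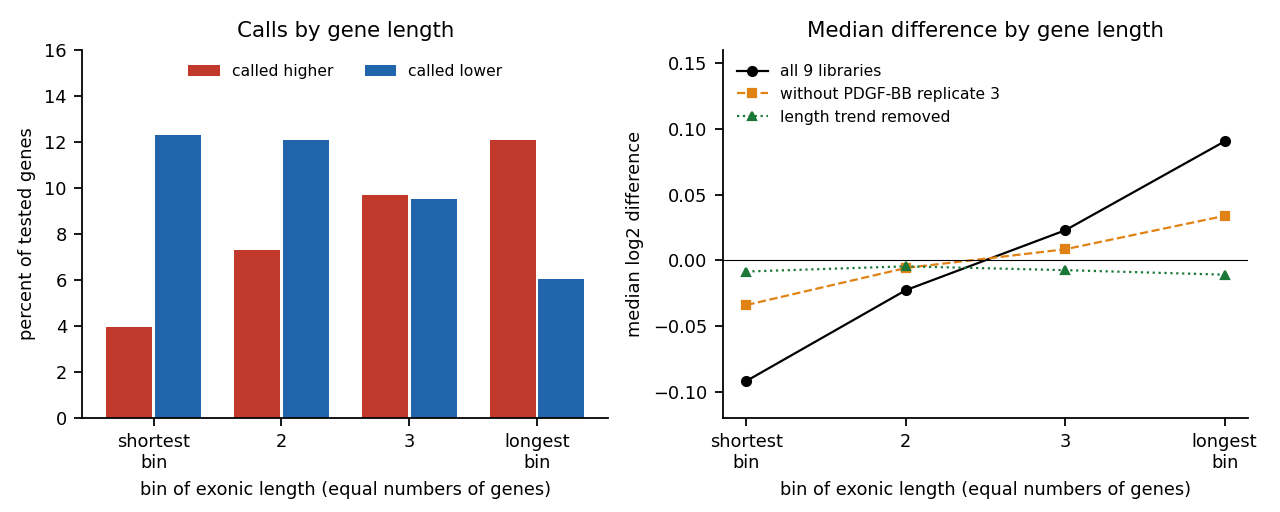
Percent of tested genes called higher and lower (left) and median log2 difference (right) in 4 equal bins of exonic length. Calls shift from lower in the shortest bin, 12.3%, to higher in the longest, 12.1%, and the medians flatten without PDGF-BB replicate 3. With the length trend removed they are flat by construction.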

How the data were processed

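RNA-seq libraries of 3 Control, 3 PDGF-BB and 3 PDGF-BB+PTUPB samples were used, grouped by their labels. The deposited table holds counts and FPKM values per gene. Per the submitters' processing notes, cutadapt 1.9.1, HISAT2 2.0.1 and HTSeq 0.6.1 were used. The notes name the mouse build mm10, while the table has rat Ensembl identifiers. Strand handling and the treatment of reads shared between copies are not given in the sources used here. The counts the authors deposited were read as estimated counts, since 978 genes had values that were not whole, and were rounded. FPKM recomputed from the counts and exonic lengths differed from the deposited FPKM by less than 0.006 for 100% of values.

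Genes that reached an FPKM of 1 in 3 or more libraries were fitted over the 3 groups with edgeR 4.0.16 (TMM, quasi-likelihood test, R 4.3.3), which left 6 residual degrees of freedom. Alternatives used limma 3.58.1 and DESeq2 1.42.0. The fit was tested on simulated data. A depth of 3 counts equals between 0.177 and 0.236 CPM, and intervals cover counting error only. Named genes were the 12 largest rises and falls, the 8 largest gains and losses in CPM, up to 4 called members of each list with the smallest p, and a set of markers and targets. Some genes that this rule selects are not reported here. The gene lists, members and tests were chosen with earlier results of these data known. PDGF-BB libraries also enter any comparison with Control, so Control values are given side by side only. Promoters came from RefSeq (GRCr8).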

Additional observations from a re-analysis of the deposited data

How the results depend on the processing

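Of 23 alternatives, the test against a change of at least 1.2-fold called 724 genes, 314 higher and 410 lower. Under it 18 of 27 mitotic, 21 of 36 kinetochore and 18 of 37 replication genes fell. That count was 9 of 27 for splicing, 3 of 22 for glycolysis and 2 of 26 for nuclear respiratory genes. Leaving out 1 library at a time gave between 1002 and 2463 called genes, 462 to 1150 higher and 540 to 1313 lower, with the lowest counts without a PDGF-BB+PTUPB library. A fit with the replicate number as a block called 1602 genes, 730 higher and 872 lower. Same-numbered libraries deviated together with r = 0.177, -0.0835 and 0.0171, and only replicate 1 of the PDGF-BB group correlated best with its own number, so the numbers were not taken to pair libraries. DESeq2 called 2308 genes and scaling to library totals 2173, with 65.1% of calls lower against 54.7%. Leaving out PDGF-BB replicate 3 and Control replicate 2 together, a choice made with earlier results of these data known, gave 2818. No named gene that was called changed direction, while 3 of the 13 named genes that were not called, Tagln, Mt-co3 and Rplp0, had differences of either sign, all between -0.12 and 0.10. The median over all tested genes was 0.01 with TMM and -0.04 with library totals. Of 221 named genes that were called, 142 kept the call in every alternative and 79 lost it in at least 1, while 4 of the 13 that were not called gained a call in at least 1. Calls rest on 3 libraries a group.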
